A study of Mus musculus with 16 samples.

Results

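Atg7 and 9 further genes of the ubiquitin-like conjugation systems of autophagy were followed across 4 groups of mouse lumbar spinal cord. They were taken by symbol (Atg7, Atg3, Atg10, Atg12, Atg5, Atg16l1, Map1lc3a, Map1lc3b, Gabarap and Gabarapl1), and all 10 were found among the 23284 gene symbols of the count table. All 10 also passed the filter on low counts, which left 15426 genes for testing. The groups of 4 mice each, all 150 days old, were Atg7 cKO; SOD1G93A (cKO_SOD1), Atg7 cWT; SOD1G93A (cWT_SOD1), Atg7 cKO (cKO) and Atg7 cWT (cWT). SOD1G93A is a mutant human SOD1 transgene that models amyotrophic lateral sclerosis, and cKO and cWT are read here as conditional knockout of Atg7 and its wild-type counterpart. The series' title places the block of autophagy in motor neurons, while whole lumbar cord was sequenced. The labels used here name neither the Atg7 allele, nor the driver of its deletion, nor the strain. The design text calls the 4 animals of a group biological replicates. Read depth ran from 14989026 to 20892530 counts per library, and counts of Xist and Y-linked genes placed 2 males and 2 females in every group.

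Autophagosome growth depends on 2 linked reactions that resemble ubiquitin conjugation. Atg7 is the E1-like enzyme that activates both modifiers, Atg12 and the Atg8 family, whose mammalian members include the LC3 proteins (Map1lc3a and Map1lc3b) and the GABARAP proteins (Gabarap and Gabarapl1). Atg10 is the E2-like enzyme that passes Atg12 to Atg5, and the Atg12–Atg5 conjugate joins Atg16l1 on the growing membrane, where the complex acts like an E3 ligase. Atg3 is the E2-like enzyme that passes Atg8 proteins to the lipid phosphatidylethanolamine. Neurons depend on this pathway to clear protein aggregates and damaged organelles along their axons.

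Transcript levels were compared between genes as FPKM (fragments scaled by transcript length and library size), which accounts for transcript length. The 4 Atg8-family genes stood far above the enzymes. In cWT cords Gabarapl1 was at 335 ± 17.1 FPKM, Map1lc3b at 191 ± 1.86, Map1lc3a at 172 ± 7.15 and Gabarap at 145 ± 12.6 FPKM (mean ± SD, n = 4), and no neighbours in this order overlapped. The middle of the order held Atg12 at 31.0 ± 0.895 and Atg3 at 27.9 ± 2.22 FPKM, which overlapped, followed by Atg5 at 16.6 ± 0.981 and Atg16l1 at 15.4 ± 0.652 FPKM, which also overlapped. The lowest were Atg10 at 7.68 ± 1.21 and Atg7 at 7.59 ± 0.799 FPKM, again overlapping. Atg7 was the lowest of the 10 by mean FPKM in all 4 groups. The order at the top differed in cWT_SOD1, where Gabarap (220.01 ± 14.4 FPKM) stood second, above Map1lc3b (179 ± 8.05 FPKM) and Map1lc3a (132 ± 12.2 FPKM), with no overlap between neighbours. In cKO_SOD1 the order was Gabarapl1 (301 ± 8.80), Map1lc3b (176 ± 4.22), Map1lc3a (149 ± 8.41) and Gabarap (148 ± 4.61 FPKM), and the last pair overlapped, as it did in cKO.

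**Figure D1:**
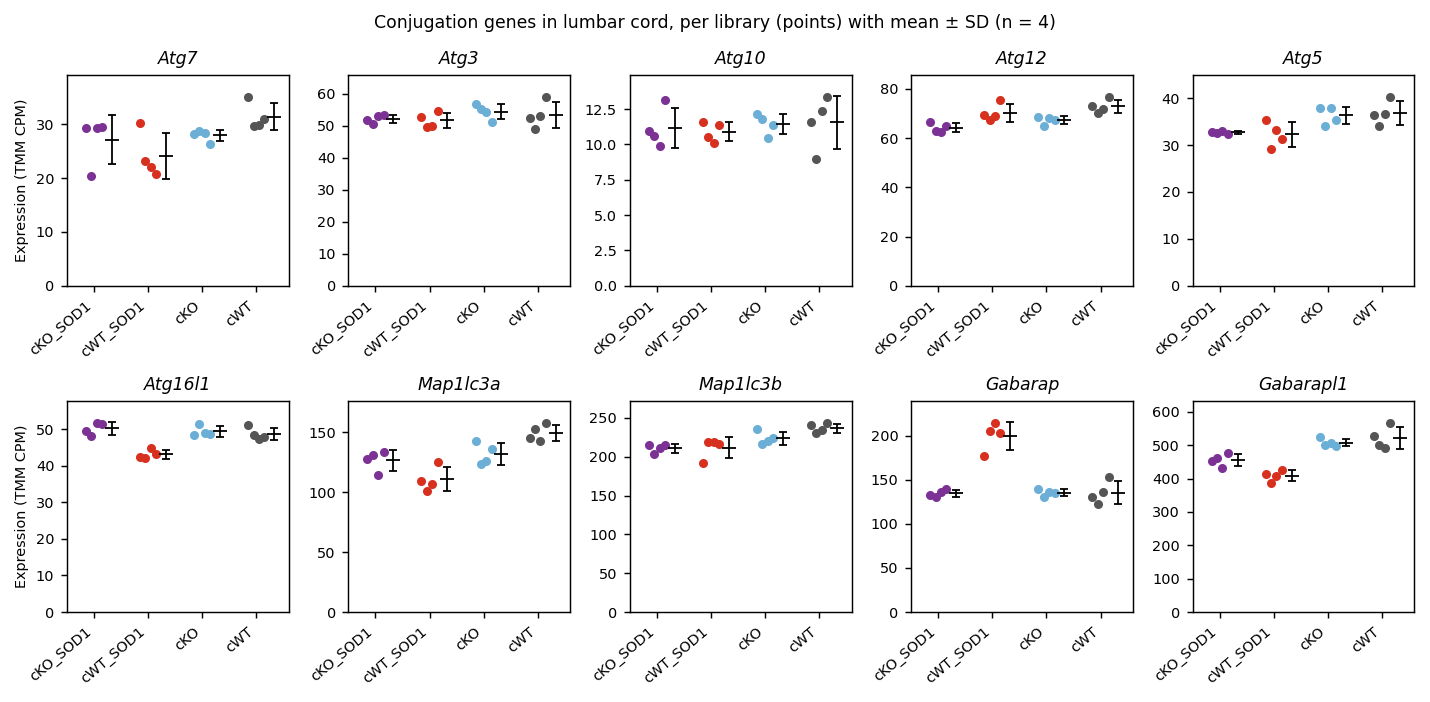
Expression of the 10 genes in each library, in library-scaled counts (CPM, y axis from 0), by group on the x axis. Points are the 4 libraries of a group in replicate order and the bar beside them is the mean ± SD. Gabarap is high in all 4 cWT_SOD1 libraries (176 to 214 CPM) and at most 153 CPM in every library of the other groups.

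Between groups, levels are given in CPM (counts scaled to library size, with TMM factors). Raw counts were tested with edgeR's quasi-likelihood F-test, with TMM factors in the fit and Benjamini-Hochberg adjustment across the 15426 genes tested. A gene was called at an adjusted p under 0.05. The SE of a log2 fold change is approximate, and intervals of a fold are its 95% limits from that SE. These are whole-cord levels, so fewer cells of a type and less RNA per cell cannot be told apart. Marker levels of the cord's cell types differed between groups. Summed over 7 neuronal markers the level was 6807 to 7496 CPM in cKO_SOD1, 3060 to 4913 in cWT_SOD1, 9667 to 10164 in cKO and 10230 to 10888 in cWT. Over 8 microglial markers it was 449 to 473, 1074 to 1596, 235 to 319 and 239 to 261 CPM in the same order of groups, and over 6 astrocyte markers 9904 to 10568, 18507 to 22949, 5944 to 6679 and 6110 to 6415 CPM. Over 8 motor neuron markers it was 167 to 218, 137 to 187, 420.4 to 483 and 476 to 616 CPM. Oligodendrocyte markers were at 24174 to 28176, 19945 to 23881, 25290 to 27701 and 24557 to 28131 CPM, endothelial markers between 115 and 165 CPM and Schwann cell markers between 185 and 358 CPM over all libraries. Skeletal muscle markers stayed at or below 1.22 CPM. None of these lists had a marker at 0 in every library of a group. The part of these shifts in the results below was not tested.

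Atg7 (mm9 chromosome 6, 114593119 to 114810632) was the gene targeted in the cKO animals. Its level was 29.4, 20.4, 29.3 and 29.6 CPM in the cKO_SOD1 libraries, 30.3, 23.1, 22.1 and 20.8 in cWT_SOD1, 28.3, 28.8, 28.4 and 26.4 in cKO and 35.1, 29.7, 29.9 and 31.0 CPM in cWT, in order of replicate number. The cKO libraries all lay below the cWT libraries, the nearest at 28.8 CPM in cKO and 29.7 CPM in cWT, and the log2 difference of −0.17 (SE 0.12, adjusted p = 0.9995) did not pass the test. Its 95% interval as a fold was 0.760 to 1.04. That interval rests on the spread in all 16 libraries. Atg7 spread by 16.6% in cKO_SOD1 and 17.7% in cWT_SOD1 (coefficient of variation in CPM), against 3.78% in cKO and 7.98% in cWT. Atg7 was not called in any of the 29 alternatives, which include a fit of cKO and cWT alone. The labels do not give the deleted part of the gene, and the counts cover the whole gene in whole cord, so they cannot check the genotype. In cWT_SOD1, 3 of 4 libraries lay below every cWT library and replicate 1 lay among them, and the log2 difference of −0.38 (SE 0.12, adjusted p = 0.00839) passed. It did not pass on unfiltered FPKM (adjusted p = 0.0596) or in males alone (−0.31, adjusted p = 0.215), whereas it did in females alone (−0.47, adjusted p = 0.00134). In cKO_SOD1 against cKO the log2 fold change was −0.04 (SE 0.12, adjusted p = 0.883), and 3 of 4 cKO_SOD1 libraries were at 29.3 to 29.6 CPM while replicate 2 was at 20.4 CPM.

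RefSeq promoter windows (GRCm38.p6, 250 bases before to 50 after the start in that table) were taken for 7 members. Map1lc3a and Atg16l1 had no entry there, and Atg12 was left out of the search. Set against the gene starts of GENCODE M21 on the same assembly, the window start of Atg7 lay 28.0 kb inside the gene, so that window was not used. The other 6 starts lay within 500 bases of the GENCODE start, the farthest being that of Gabarap, 227 bases downstream. By its GENCODE start (69991143), most of the Gabarap window lies inside the gene. Of these, 4 are shown: Atg3 and Atg5, which hold the 6-base E-box CACGTG, and Gabarap and Gabarapl1, which moved in opposite directions below. Capitals mark matches on either strand to any of the motifs searched, which were CACGTG (an E-box), GTAAACA (a forkhead motif), TGATGNAA (bound by Atf4 with C/EBP partners) and TGACGTCA (a cyclic AMP response element).
Atg3 (chr16:45158579-45158878, plus strand): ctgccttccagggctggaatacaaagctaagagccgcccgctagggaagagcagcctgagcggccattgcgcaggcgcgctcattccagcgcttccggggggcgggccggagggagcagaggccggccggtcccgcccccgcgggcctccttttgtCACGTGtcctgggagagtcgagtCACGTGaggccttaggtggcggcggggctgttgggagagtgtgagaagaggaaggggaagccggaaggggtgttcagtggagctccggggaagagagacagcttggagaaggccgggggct
Atg5 (chr10:44268089-44268388, plus strand): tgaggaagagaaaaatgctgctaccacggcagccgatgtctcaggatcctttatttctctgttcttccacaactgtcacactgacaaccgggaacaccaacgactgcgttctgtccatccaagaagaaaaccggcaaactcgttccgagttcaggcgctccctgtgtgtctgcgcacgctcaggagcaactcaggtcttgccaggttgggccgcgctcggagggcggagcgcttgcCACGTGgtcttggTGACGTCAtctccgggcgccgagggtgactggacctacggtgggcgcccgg
Gabarap (chr11:69991120-69991419, plus strand): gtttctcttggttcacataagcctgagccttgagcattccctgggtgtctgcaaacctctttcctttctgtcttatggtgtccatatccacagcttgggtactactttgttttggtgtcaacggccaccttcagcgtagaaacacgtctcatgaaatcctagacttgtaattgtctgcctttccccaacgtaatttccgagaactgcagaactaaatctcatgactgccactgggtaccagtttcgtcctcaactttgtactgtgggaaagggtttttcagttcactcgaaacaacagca
Gabarapl1 (chr6:129532942-129533241, plus strand): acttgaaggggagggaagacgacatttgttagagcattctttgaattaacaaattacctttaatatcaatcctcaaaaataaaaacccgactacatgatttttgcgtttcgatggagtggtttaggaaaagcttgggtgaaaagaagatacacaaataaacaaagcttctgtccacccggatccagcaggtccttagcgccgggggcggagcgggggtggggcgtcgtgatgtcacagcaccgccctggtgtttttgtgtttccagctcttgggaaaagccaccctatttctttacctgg

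The palindrome CACGTG, the core of the E-boxes bound by Tfeb-family and other basic helix-loop-helix factors, was found 2 times in the Atg3 window and once in that of Atg5, and not in those of Atg10, Map1lc3b, Gabarap or Gabarapl1. Of all 32851 windows in the RefSeq table, 7.15% hold it. TGACGTCA was found in Atg5 across the start, and 1.79% of all windows hold it. GTAAACA (3.65% of windows) and TGATGNAA (3.97%) were in none of the 6. The Gabarap window holds little sequence before the GENCODE start, so the lack of a match there does not describe its promoter. Of the 2 genes with CACGTG among these 6, Atg5 fell in cWT_SOD1 against cWT and Atg3 was not called in any comparison. A match is a run of letters and not a site shown to be bound.

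The first comparison, cWT_SOD1 against cWT, shows the transgene's effect with Atg7 intact. One member rose, Gabarap, and 6 fell, Atg7, Atg5, Atg16l1, Map1lc3a, Map1lc3b and Gabarapl1, while Atg3, Atg10 and Atg12 were not called. With 7 of 10 called, the members were near the background, since 66.3% of all genes tested were called in this comparison, 33.2% higher and 33.1% lower. The 2 groups did not overlap for 5 members, against 56.6% of all genes. The median log2 fold change was −0.17 over the members and 0.0088 over all genes.

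Among the Atg12–Atg5 conjugation genes the changes were small. Atg5 (mm9 chromosome 10, 43988164 to 44084097) had 35.4, 29.2, 33.2 and 31.3 CPM in cWT_SOD1 and 36.4, 34.0, 36.6 and 40.2 CPM in cWT. The groups overlapped, and the call of its lower level, −0.19 (SE 0.063, adjusted p = 0.0129), was lost on FPKM (adjusted p = 0.0655), with only the 2 groups fitted (0.0668), without cWT_SOD1 replicate 2 (0.0734) and in males alone (−0.04, 0.689). Atg16l1 (mm9 chromosome 1, 89652586 to 89689003), the membrane-binding partner of the conjugate, had 42.4, 42.1, 44.9 and 43.4 CPM in cWT_SOD1 against 51.2, 48.5, 47.3 and 47.9 CPM in cWT. All 4 cWT_SOD1 libraries lay below all 4 cWT libraries, at −0.17 (SE 0.044, adjusted p = 0.00217), a call lost in females alone (adjusted p = 0.0831). The modifier Atg12 (mm9 chromosome 18, 46892071 to 46901233) was at 70.3 ± 3.69 CPM in cWT_SOD1 and 72.9 ± 2.77 CPM in cWT, with a fold interval of 0.906 to 1.03 (adjusted p = 0.32). Its E2 Atg10 (mm9 chromosome 13, 91074954 to 91363592) was at 10.9 ± 0.690 CPM in cWT_SOD1 and 11.6 ± 1.88 CPM in cWT, interval 0.808 to 1.10 (adjusted p = 0.512). Atg3 (mm9 chromosome 16, 45158942 to 45188651), the E2 of the Atg8 branch, was at 51.8 ± 2.37 CPM in cWT_SOD1 and 53.3 ± 4.12 CPM in cWT, interval 0.900 to 1.05 (adjusted p = 0.511).

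The Atg8-family genes moved apart. Gabarap (mm9 chromosome 11, 69804872 to 69808451) had 176, 206, 214 and 202 CPM in the cWT_SOD1 libraries, against 131, 122, 136 and 153 CPM in cWT. Every cWT_SOD1 library was above every cWT library, and Gabarap rose 1.47-fold, or on the log2 scale 0.56 (SE 0.064, adjusted p = 6.02e-07). Gabarapl1 (mm9 chromosome 6, 129483210 to 129492349), its close paralog, had 412, 386, 408 and 425 CPM in cWT_SOD1 against 527, 500.3, 493 and 565 CPM in cWT, and fell 1.28-fold, at −0.35 (SE 0.051, adjusted p = 9.28e-06), with no overlap. Map1lc3a (mm9 chromosome 2, 155102100 to 155103809) had 109, 101.2, 107 and 125 CPM in cWT_SOD1 against 145, 153, 143 and 157 CPM in cWT. It too was lower in every cWT_SOD1 library, and its fall of 1.35-fold was the largest of the 10, at −0.43 (SE 0.067, adjusted p = 2.06e-05). Map1lc3b (mm9 chromosome 8, 124114368 to 124121947), whose protein is the common immunoblot marker of autophagosomes, had 192, 219, 219 and 217 CPM in cWT_SOD1 against 240.3, 230.3, 234 and 243 CPM in cWT. It fell by less, at −0.16 (SE 0.048, adjusted p = 0.00673), without overlap, and was no longer called in either sex alone (adjusted p = 0.0757 in males, 0.129 in females). The calls of Gabarap, Gabarapl1 and Map1lc3a held under all 29 alternatives tried, with log2 fold changes from 0.50 to 0.62, −0.38 to −0.30 and −0.49 to −0.38.

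Shares of the summed FPKM of the 4 Atg8-family genes do not depend on library scaling. Gabarap made up 25.5 to 28.8% of the sum in cWT_SOD1 libraries, against 16.001 to 18.1% in cWT. Gabarapl1 made up 32.9 to 36.1% in cWT_SOD1 and 38.95 to 40.5% in cWT, and Map1lc3a 15.2 to 17.7% in cWT_SOD1 and 19.9 to 21.5% in cWT. The mean Map1lc3a share differed by −4.02 percentage points, cWT_SOD1 minus cWT, and by −2.44 points when shares were taken on CPM. The share of Map1lc3b overlapped, at 21.3 to 23.2% in cWT_SOD1 and 21.6 to 23.3% in cWT. In cKO_SOD1 the Gabarap share was 18.6 to 20.002%, against 17.7 to 18.3% in cKO. Within a library the FPKM of Gabarap was 0.492 ± 0.0212 of that of Gabarapl1 in cKO_SOD1, 0.809 ± 0.08104 in cWT_SOD1, 0.441 ± 0.00778 in cKO and 0.431 ± 0.0258 in cWT (SD, n = 4). The sum itself was 803 ± 23.6 FPKM in cWT_SOD1 against 843 ± 32.8 FPKM in cWT, and 774 ± 15.7 FPKM in cKO_SOD1 against 808 ± 20.05 FPKM in cKO. These are descriptions with no test.

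**Figure D2:**
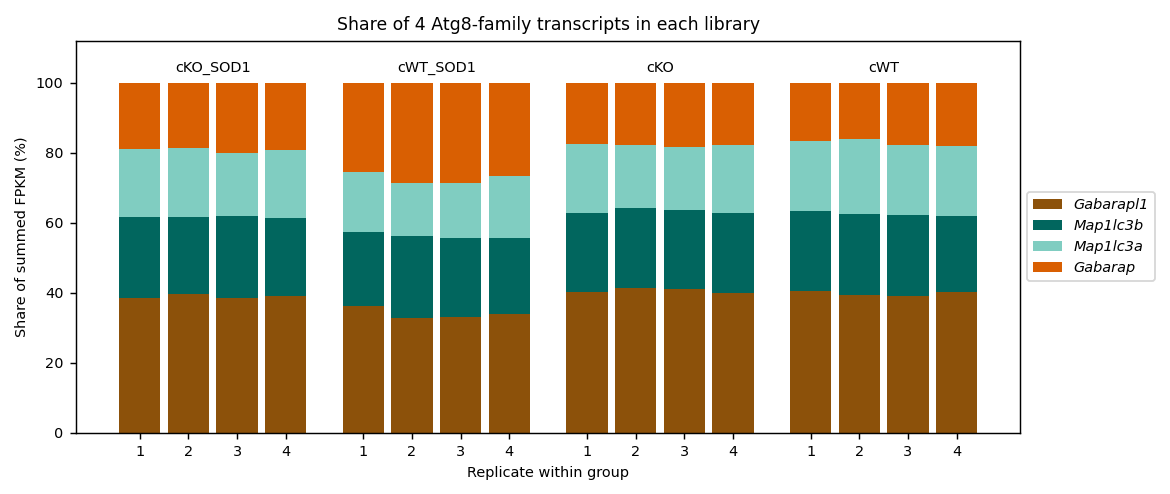
Share of the summed FPKM of Gabarapl1, Map1lc3b, Map1lc3a and Gabarap in each library (y axis, percent), with the 4 replicates of each group side by side on the x axis. The Gabarap segment at the top is widest in the 4 cWT_SOD1 libraries, at 25.5 to 28.8%, and at most 20.002% in any library of the other groups.

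On the cKO background the transgene gave no member a call. In cKO_SOD1 against cKO, 0 of 10 members passed in edgeR, where 7.28% of all genes did. At an unadjusted p under 0.05 there were 2 members, Atg5 and Gabarapl1, against 21.2% of all genes, and DESeq2 called 1. Gabarap was at 133, 131, 136 and 139.7 CPM in cKO_SOD1 and 139, 130.4, 137 and 134 CPM in cKO. The groups overlapped, and the fold interval of 0.914 to 1.09 (adjusted p = 0.981) lies below that of its rise in cWT_SOD1 against cWT, 1.35 to 1.61. The nearest to a call was Gabarapl1, at 452, 462, 433 and 476 CPM in cKO_SOD1 against 524, 501, 508 and 498 CPM in cKO. Its libraries did not overlap, and its log2 fold change of −0.16 (SE 0.051, adjusted p = 0.0764) passed in a fit of cKO_SOD1 and cKO without the other groups (adjusted p = 0.00872), with limma-voom weighted by group (0.0165), with DESeq2 (0.0133) and without cWT replicate 4 (0.0471). Atg5 was at 32.7 ± 0.311 CPM in cKO_SOD1 and 36.3 ± 1.85 CPM in cKO, without overlap, at −0.15 (SE 0.062, adjusted p = 0.166). Map1lc3b, at 211 ± 5.66 CPM in cKO_SOD1 and 224 ± 8.26 CPM in cKO, was the third member whose groups did not overlap, against 20.9% of all genes. The other 7 members overlapped, with log2 fold changes from −0.07 to 0.02.

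**Figure D3:**
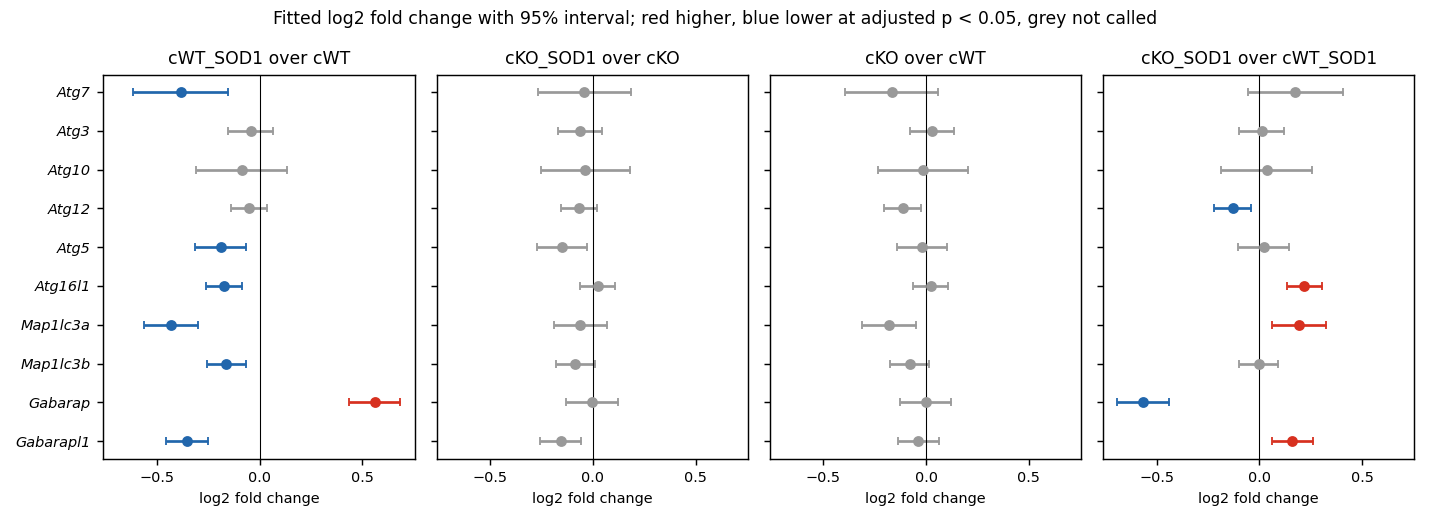
Fitted log2 fold change of each of the 10 genes (x axis) in 4 comparisons, with bars of the 95% interval; red is called higher, blue called lower and grey not called. Gabarap stands at 0.56 in cWT_SOD1 over cWT and at −0.57 in cKO_SOD1 over cWT_SOD1, and close to 0 in the other 2 comparisons.

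Between genotypes with the transgene, cKO_SOD1 against cWT_SOD1, 5 of 10 members were called, 3 higher and 2 lower, where 58.2% of all genes were called, 29.1% in each direction. This comparison shares the cWT_SOD1 libraries with the first. Gabarap was 1.48-fold lower in cKO_SOD1, at 135 ± 3.87 CPM in cKO_SOD1 against 199.6 ± 16.2 CPM in cWT_SOD1. All 4 cKO_SOD1 libraries lay under all 4 of cWT_SOD1, at −0.57 (SE 0.064, adjusted p = 1.05e-06). Atg16l1 was higher, with 49.6, 48.2, 51.6 and 51.6 CPM in cKO_SOD1 and 42.4, 42.1, 44.9 and 43.4 CPM in cWT_SOD1, again without overlap (4 of 10 members, against 49.1% of all genes, had none), at 0.22 (SE 0.044, adjusted p = 0.00037), a call lost in males alone (adjusted p = 0.0881). Gabarapl1, at 455 ± 18.3 CPM in cKO_SOD1 and 408 ± 16.2 CPM in cWT_SOD1, was higher at 0.16 (SE 0.051, adjusted p = 0.013), a call lost in males (adjusted p = 0.106), in females (0.183) and without cWT_SOD1 replicate 2 (0.0556). Map1lc3a was higher at 0.19 (SE 0.067, adjusted p = 0.0216), with groups that overlapped, and lost the call in females alone (adjusted p = 0.376), with only the 2 groups fitted (0.0513) and in 5 of the fits that left out 1 library. Those fits were the ones without cWT_SOD1 replicate 2 (adjusted p = 0.0941) or 3 (0.0545) and without cKO_SOD1 replicate 1 (0.0512), 2 (0.0537) or 4 (0.0645). Atg12 was lower, with 66.4, 63.1, 62.5 and 64.8 CPM in cKO_SOD1 against 69.2, 67.3, 68.9 and 75.7 CPM in cWT_SOD1, at −0.13 (SE 0.046, adjusted p = 0.0212). That call was lost with no filter (adjusted p = 0.0512), with only the 2 groups fitted (0.0623), without cKO_SOD1 replicate 2 (0.0553) or cWT_SOD1 replicate 4 (0.0652), and in males (0.338) or females alone (0.1202). Atg7 itself was not called, at 0.17 (SE 0.12, adjusted p = 0.22), and was at 0.42 in females alone (adjusted p = 0.00344) and at −0.07 in males alone (0.817). It was called without cWT_SOD1 replicate 1 (0.30, adjusted p = 0.0212) or without cKO_SOD1 replicate 2 (0.29, 0.0211). For Map1lc3b the fold interval was 0.934 to 1.06 (adjusted p = 0.946), for Atg3 0.934 to 1.09 and for Atg5 0.931 to 1.10.

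The interaction tests whether the transgene's effect differed between the genotypes. It was called for 4 of 10 members, where 45.0% of all genes were called, and combines the same 16 libraries as the comparisons above. Gabarap had the largest, at −0.56 (SE 0.090, adjusted p = 9.90e-05), and it held under all 28 alternatives, from −0.63 to −0.49. Map1lc3a was at 0.37 (SE 0.095, adjusted p = 0.00405), Atg16l1 at 0.20 (SE 0.062, adjusted p = 0.0154) and Gabarapl1 at 0.20 (SE 0.072, adjusted p = 0.034). The call of Map1lc3a was lost in females alone (0.24, adjusted p = 0.285) and that of Atg16l1 in each sex alone. Gabarapl1 lost it under 12 of 28 alternatives, among them the fits without cWT replicate 1 or 4, cWT_SOD1 replicate 2, cKO replicate 2, 3 or 4, and cKO_SOD1 replicate 1, 2 or 4, at adjusted p from 0.0516 to 0.0797. For Atg7 the interaction was 0.34 (SE 0.17, adjusted p = 0.103), and it passed without cWT_SOD1 replicate 1 (0.47, adjusted p = 0.0109) or cKO_SOD1 replicate 2 (0.46, 0.0121) and in females alone (0.58, 0.00692), while in males alone it was 0.12 (adjusted p = 0.7945).

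Deletion alone, cKO against cWT, gave no member a call in edgeR, and 0.0259% of all genes passed, which is 4 genes. At an unadjusted p under 0.05 there were 2 members, Atg12 and Map1lc3a, against 3.52% of all genes, and DESeq2 called 0 of the 10. The cKO and cWT libraries did not overlap for 3 of 10 members, against 3.48% of all genes, and all 3 were lower in cKO: Atg7, Atg12 and Map1lc3a. Atg12 had 68.7, 64.9, 68.1 and 67.4 CPM in cKO and 72.9, 70.2, 71.7 and 76.7 CPM in cWT, at −0.11 (SE 0.045, adjusted p = 0.9995). Map1lc3a had 142, 123, 126 and 136 CPM in cKO and 145, 153, 143 and 157 CPM in cWT, at −0.18 (SE 0.067, adjusted p = 0.9995). Of the 8 motor neuron markers 2 were called lower in cKO against cWT, and their part in these values was not tested. Neither gene passed under any of the 29 alternatives. Gabarap (135 ± 3.801 CPM in cKO, 135 ± 12.9 CPM in cWT) had a fold interval of 0.915 to 1.09, Gabarapl1 one of 0.909 to 1.04, Map1lc3b of 0.886 to 1.01 and Atg16l1 of 0.957 to 1.08. Those of Atg3, Atg5 and Atg10 were 0.947 to 1.10, 0.907 to 1.07 and 0.851 to 1.152.

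The genes differed in how tightly animals of a group agreed. Atg7 spread by 16.6% (coefficient of variation in CPM) in cKO_SOD1 and 17.7% in cWT_SOD1, against 3.78% in cKO and 7.98% in cWT. Atg10, with 157 to 265 counts per library, the lowest of the 10, spread by 12.6% in cKO_SOD1, 6.33% in cWT_SOD1, 6.38% in cKO and 16.3% in cWT. Gabarap spread by 2.87% in cKO_SOD1, 8.12% in cWT_SOD1, 2.81% in cKO and 9.49% in cWT. The tightest single value was that of Atg5 in cKO_SOD1, at 0.952%.

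Reads of related sequences could blur some of these values. Among GENCODE M21 transcripts, those of Map1lc3b had matches of at least 100 bases at 95% identity or more to 63 other genes, the longest of 378 bases, and those of Atg12 to 8, the longest of 164 bases. Gabarapl1 matched 1 gene, 1700101I11Rik, over 379 bases, and its mm9 span overlaps that gene, which had 7 to 24 counts per library against at least 6416 for Gabarapl1. No member matched another member at this level, and the other 7 matched nothing. Atg5 and Atg16l1 overlap the small RNA genes Mir1929 (at most 3 counts) and Scarna6 (at most 9 counts).

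The rest of the conjugation pathway was read from a list of 8 genes. In cWT_SOD1 against cWT 5 fell and 1 rose, 6 of 8 called beside 66.3% of all genes, with a median log2 fold change of −0.26. The proteases that trim and recycle Atg8 proteins split: Atg4d fell 1.53-fold, with 18.0 ± 1.97 CPM in cWT_SOD1 and 27.5 ± 1.31 CPM in cWT (adjusted p = 9.93e-07), and Atg4b fell 1.32-fold (adjusted p = 1.68e-06). Atg4a rose 1.83-fold, with 6.29 ± 0.697 CPM in cWT_SOD1 against 3.43 ± 0.110 CPM in cWT (adjusted p = 1.99e-06). Also called lower were the Atg8-family gene Gabarapl2, Atg4c and Tecpr1, which encodes a protein that binds the Atg12–Atg5 conjugate. Wipi2, which recruits Atg16l1 to the membrane, and the Atg16l1 paralog Atg16l2 were not called. In cKO_SOD1 against cKO none of the 8 passed in edgeR, where 7.28% of all genes did. At an unadjusted p under 0.05 there were 2, Atg4a and Atg4b, near the 21.2% of all genes. None passed in cKO against cWT (0.0259% of all genes did), where no unadjusted p was under 0.05 either (3.52% of all genes). In cKO_SOD1 against cWT_SOD1, 3 were higher and 1 lower, 4 of 8 beside 58.2% of all genes: Atg4d was 1.45-fold higher, at 0.54 (SE 0.073, adjusted p = 6.99e-06), Atg4c 1.31-fold higher, at 0.39 (SE 0.074, adjusted p = 0.000223), Atg4b higher and Atg4a 1.42-fold lower, at −0.51 (SE 0.11, adjusted p = 0.000622). The same 4 were called for the interaction, beside 45.0% of all genes, at 0.57 for Atg4d, 0.28 for Atg4b, 0.39 for Atg4c and −0.61 for Atg4a (adjusted p from 0.00025 to 0.00613).

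**Figure D4:**
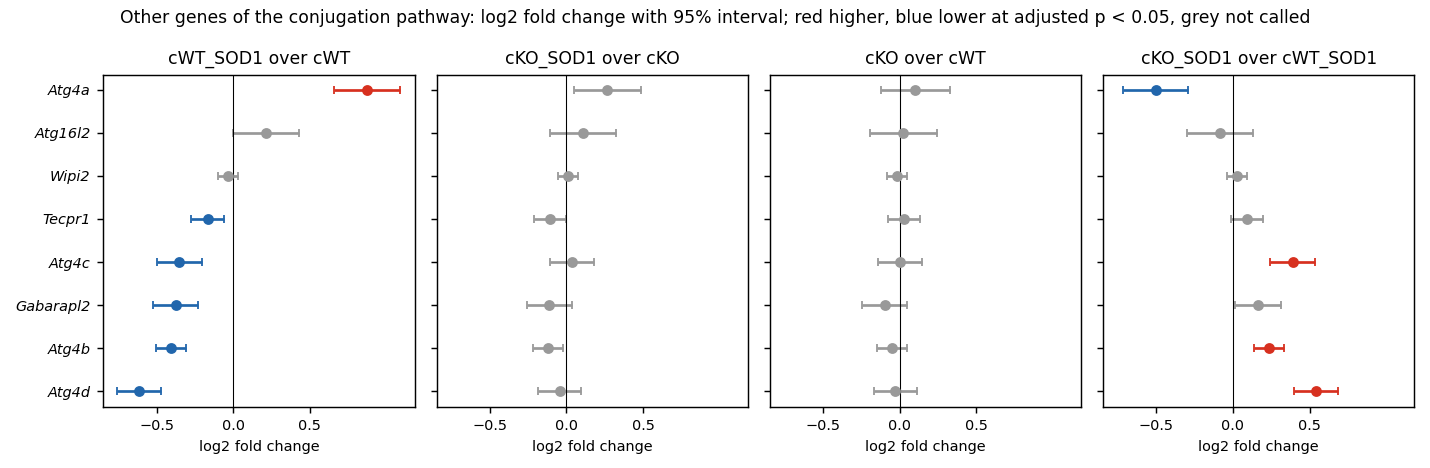
Fitted log2 fold change (x axis) of 8 other genes of the conjugation pathway in 4 comparisons, with bars of the 95% interval and the same colours for calls. Atg4a stands at 0.88 and Atg4d at −0.61 in cWT_SOD1 over cWT, and at −0.51 and 0.54 in cKO_SOD1 over cWT_SOD1.

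Of 20 genes of autophagy initiation and membrane supply, 4 rose and 10 fell in cWT_SOD1 against cWT, near the 66.3% of all genes called (33.2% higher, 33.1% lower), led by the kinase Ulk1 (1.48-fold lower) and the membrane protein Atg9a (1.45-fold lower). In cKO_SOD1 against cWT_SOD1, 10 were higher and 6 lower, with Atg9a (1.45-fold) and Ulk1 (1.35-fold) higher, where 58.2% of all genes were called, 29.1% each way. None was called in cKO_SOD1 against cKO or in cKO against cWT, where 7.28% and 0.0259% of all genes were. Of 11 autophagy receptors, 2 rose and 5 fell in cWT_SOD1 against cWT, again near the 66.3% of all genes, with the mitophagy receptor Bnip3 1.52-fold lower and Wdfy3, a scaffold for aggregates, 1.44-fold lower. In cKO_SOD1 against cKO 2 receptors fell (2.48% of all genes did), Bnip3 (1.17-fold, adjusted p = 0.0151) and Sqstm1, which encodes p62 (1.14-fold, adjusted p = 0.0357). In cKO against cWT no receptor was called (0.0259% of all genes were). The smallest p was that of the ferritin receptor Ncoa4, at 10.4 ± 0.385 CPM in cKO and 14.7 ± 2.79 CPM in cWT. Its groups overlapped, and its log2 fold change was −0.49 (SE 0.11, adjusted p = 0.351). Sqstm1 was next, at 589 ± 24.2 CPM in cKO and 513 ± 21.8 CPM in cWT, or on the log2 scale 0.20 (SE 0.051, adjusted p = 0.653). In cKO_SOD1 against cWT_SOD1 3 receptors were higher and 1 lower, 4 of 11 beside 58.2% of all genes, with Wdfy3 1.40-fold higher and Ncoa4 1.65-fold lower. Atg7 can be set beside 9 genes for E1 enzymes, or subunits of them, of ubiquitin and other ubiquitin-like systems. Of these 9, 1 rose and 5 fell in cWT_SOD1 against cWT, 6 of 9 beside 66.3% of all genes, with Uba7, the E1 of the interferon-induced modifier Isg15, 3.58-fold higher and Uba6 1.39-fold lower. In cKO_SOD1 against cKO, where 4.80% of all genes rose, Uba7 alone of the 9 was called, 1.57-fold higher (adjusted p = 0.0315). In cKO_SOD1 against cWT_SOD1 Uba7 was 2.22-fold lower and Uba6 1.28-fold higher, among 3 higher and 1 lower, 4 of 9 beside 58.2% of all genes.

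Genes with the most similar pattern were sought among 10529 genes of at least 10 CPM, by Pearson correlation of log2 CPM over the 16 libraries, a description with no test because libraries of a group share its condition. Closest to Atg7 were Slc25a15 (r = 0.89), C030039L03Rik (0.85) and Pot1a (0.84). With group means taken off they were Rbm8a (0.88), Slc25a15 (0.84) and Trmt2b (0.84). Gabarap was closest to Prnp (0.99, and 0.95 with group means taken off), Gabarapl1 to Uchl1 (0.97 and 0.89), Map1lc3a to Ndufb6 (0.95 and 0.82), Map1lc3b to Cldn10 (0.93 and 0.92) and Atg16l1 to 2610301G19Rik (0.94 and 0.69). Atg5 was closest to Cops5 (0.92 and 0.87), Atg12 to Mrpl27 (0.85 and 0.798), Atg3 to Aimp1 (0.84 and 0.83) and Atg10 to N6amt1 (0.83 and 0.83). Between members, Gabarap correlated negatively with 8 of the other 9 over all libraries, down to −0.84. With group means taken off it correlated positively with 8 of 9, up to 0.77. Of the 36 pairs without Gabarap, 35 were positive over all libraries.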

How the data were processed

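RNA was sequenced from 16 lumbar spinal cords, 4 per group. The authors deposited raw counts per gene symbol and FPKM per gene. The submitters' processing notes name bcl2fastq 1.8.4, TopHat2 2.0.4, Cufflinks 2.0.2 and mm9, with no role stated; no source used here names the counting tool or strand setting. Overlapping genes may share reads. Counts were tested with edgeR 4.0.16 (R 4.3.3): TMM factors, filterByExpr, 1 quasi-likelihood fit of all 16 libraries, Benjamini-Hochberg adjustment over 15426 genes. Depth of 14989026 to 20892530 counts per library sets the precision. FPKM, a deposited unit, was used for levels between genes and shares. Alternatives covered scaling, filter, DESeq2 1.42.0, limma 3.58.1 on counts and FPKM, sex, replicate block and each library left out. The fits were also run on simulated counts, with few genes changed and each gene's spread the same in all groups. Such counts cannot show how the fits handle a group with a wider spread, such as cWT_SOD1. No 2 libraries of a group agreed within sampling noise. By the mean chi-square per gene between 2 libraries, cWT_SOD1 agreed least. Its replicate 1 was at 41.1 against replicate 3 and 37.8 against replicate 2. The highest in any other group was 11.6, between cWT replicates 2 and 4.

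The members and gene lists were chosen with earlier results of these data known. All 10 members are named; of other lists, those with the smallest p. Older symbols matched 2 listed genes, Atg101 and Wdr45b. RefSeq promoters (GRCm38.p6) were matched by symbol.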

Additional observations from a re-analysis of the deposited data

Results flagged for a closer look

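Of 40 sets of 4 libraries (10 genes in 4 groups), 2 held a library far from the others by Dixon's criterion, which chance gives in about 1 in 20. Atg7 in cKO_SOD1 was 20.4 CPM in replicate 2 and 29.3 to 29.6 CPM in the other 3. Map1lc3b in cWT_SOD1 was 192 CPM in replicate 1 and 217 to 219 CPM in the other 3.

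The effect of the transgene was called as different between cKO and cWT backgrounds, by edgeR's test of the interaction, for 4 members. Of these, only Gabarap kept the call under all 28 alternatives. The log2 differences were −0.56 for Gabarap, 0.37 for Map1lc3a, 0.20 for Gabarapl1 and 0.20 for Atg16l1 (adjusted p = 9.90e-05, 0.00405, 0.0340 and 0.0154), where 45.0% of all genes were called.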

How the results depend on the processing

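Of 29 alternatives, 16 left out 1 library each, and no called value reversed. Of 16 called member results, 5 kept the call throughout. In cWT_SOD1 against cWT, 7 members were called, 4 in males alone, and 6 to 7 with 1 library left out. In cKO_SOD1 against cKO, 0 were called, against 1 (Gabarapl1) with DESeq2, with limma-voom and with only the 2 groups fitted, and 0 to 1 with 1 library left out. In cKO_SOD1 against cWT_SOD1, 5 were called, against 3 with only the 2 groups fitted, 2 in males alone, 3 in females alone and 3 to 6 with 1 library left out. For the interaction 4 were called, 2 in males alone, 2 in females alone, and 3 to 5 with 1 library left out. Fits to 1 sex hold 2 libraries per group; the causes were not tested otherwise. The Gabarap share differed by 10.3 percentage points between cWT_SOD1 and cWT on FPKM, 8.48 on CPM, 9.50 with Gabarapl2 in the sum and 9.81 to 10.9 with 1 library left out; the last 2 were chosen after seeing the data.

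Whether replicate numbers pair the samples was not settled, and the main fits used no pairing. Of 24 same-numbered pairs, 11 correlated above 0.1 (r from −0.30 to 0.37), and 7 of 16 libraries correlated best with their own number. The median r was 0.082 for same-numbered pairs and −0.016 for other pairs between groups. A replicate block left the counts at 7, 0, 0, 5 and 4 (the last for the interaction).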
